A study of Mus musculus with 8 samples.

Results

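Annexins are proteins that bind membranes rich in acidic phospholipids when calcium rises, and the transcripts of this gene family were followed in spheres of mouse sympathetic ganglion cells grown with or without retinoic acid (RA). The set was 10 mouse annexin genes, Anxa1 to Anxa9 and Anxa11, found on the array through the RefSeq accession of each probe. All 10 had probes, 14 of 55617 in all, among 20641 genes with a named probe. The set is nearly the whole family: the RefSeq table holds 12 numbered annexin genes, and Anxa10 and Anxa13 were not part of the set. The genes were proposed with the comparison of the media already known, so their own differences between media are given below as a description, without p-values.

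Expression was measured on 8 single-colour Agilent arrays. The donors were 3-week-old TH-MYCN hemizygous mice (TH-MYCN+/-) on a 129+Ter/SvJcl background, and the tissue was their superior mesenteric ganglion. Every culture thus carried the transgene, which uses the tyrosine hydroxylase promoter to drive MYCN in sympathetic cells. The dissociated ganglion cells of each of 4 animals were divided between RA (+) medium, here called RA-containing, and RA (-) medium, here called RA-free, and the primary spheres were collected after 8 days. There were thus 4 RA-containing and 4 RA-free arrays, numbered 1 to 4 by animal, and no culture of mice without the transgene was analysed here. In such cultures fewer cells of a type and less RNA per cell cannot be told apart.

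An annexin has a conserved core of repeated helical domains that carries the calcium and lipid binding sites, and an N-terminal stretch that differs between members and binds their partners. Several partners are S100 proteins, small calcium-binding dimers; S100a10 joins a pair of Anxa2 molecules into a complex at the cell surface that binds plasminogen. Annexins take part in exocytosis, endosome transport and the patching of torn membranes, and Anxa7, or synexin, is known for aggregating the chromaffin granules of the adrenal medulla, a tissue of the same sympathoadrenal lineage as these cells.

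Levels are log2 intensities relative to the 75th percentile of the same array, so a level of 0 equals that percentile. They compare arrays for 1 probe and do not rank genes, since probes differ in brightness. The 75th percentile lay between 228 and 302 intensity units, and 48.5% to 55.3% of non-control spots were well above background. The media separated along a first principal component with 81.7% of the variance. On this axis RA-free array 1 lay at 42.3, short of its 3 fellows at 59.5 to 66.2, so values without animal 1 are given where they matter. All 10 sympathetic neuroblast markers were tested, 2 being called higher and 4 lower without RA, and they changed in opposite directions. Of all tested genes 35.9% were called higher and 28.4% lower. Th, the tyrosine hydroxylase gene, whose promoter drives the transgene, went from 4.25 ± 0.31 to 7.83 ± 0.10 (SD, n = 4; 12-fold higher, adjusted p = 5.19e-05 by limma), and Gata2 was 4.33-fold higher (adjusted p = 0.000113 by limma). Dbh, which makes noradrenaline, was 2.9-fold lower (adjusted p = 0.000267 by limma), and Chga, a granule protein, 2-fold lower (adjusted p = 0.000845 by limma). The summed linear level of the list, 457 to 571 with RA and 472 to 599 without, adds up these opposite changes.

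Spheres without RA had a much higher level of Anxa1 and lower levels of most other annexins. Of the 10 genes, 9 were well above background on at least 4 arrays and were tested; Anxa3 was not. In the limma fit over all 13539 tested genes, 1 annexin (Anxa1) was called higher in RA-free medium, where 35.9% of all tested genes were, and 7 were called lower, where 28.4% of all were. In either direction 64.3% of all tested genes were called, and since the set was chosen on this comparison nothing is read from these counts. The median change of the 9 annexins was −1.28, against 0.07 for all tested genes. Changes reached a size of 1 (log2) in 7 of the 9, a size reached by 18.2% of all tested genes. The 4 arrays of one medium did not overlap those of the other for 8 of the 9, all but Anxa8, and for 53.1% of all tested genes.

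**Figure D1:**
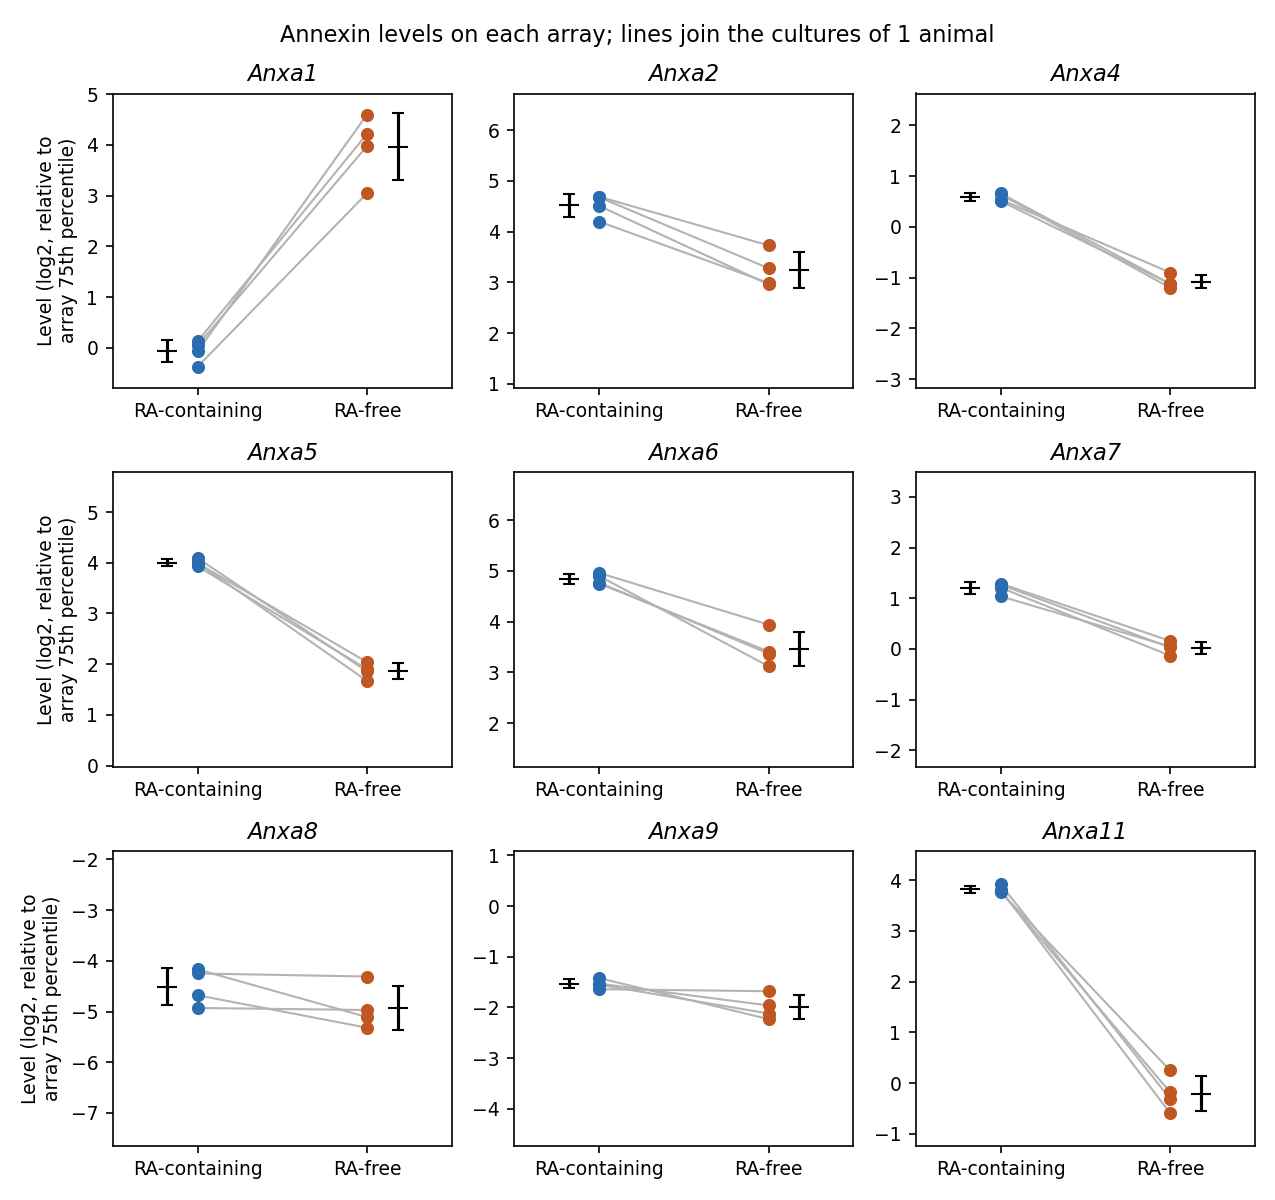
Level of each tested annexin on each array (y axis, log2 relative to the array's 75th percentile; every panel spans the same log2 range) in RA-containing and RA-free spheres (x axis). Points are arrays, grey lines join the cultures of 1 animal, and black marks are the mean and SD of 4 arrays. Anxa1 lies between −0.37 and 0.13 with RA and between 3.05 and 4.60 without it, while Anxa11 lies between 3.77 and 3.92 with RA and between −0.59 and 0.25 without it.

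The promoters of 3 members are shown because they mark the ends of the range, Anxa1 the rise and Anxa11 the largest decrease, and because Anxa2 has the best known S100 partner. Each line gives the 250 bases before the annotated gene start, from RefSeq on GRCm38.p6, with TATAAA and TGACTCA in capitals on either strand (TGAGTCA is TGACTCA read on the other strand). The Anxa1 window is at chr19:20390672-20390921 on the minus strand, Anxa2 at chr9:69453433-69453682 on the plus strand and Anxa11 at chr14:25841905-25842154 on the plus strand.
Anxa1: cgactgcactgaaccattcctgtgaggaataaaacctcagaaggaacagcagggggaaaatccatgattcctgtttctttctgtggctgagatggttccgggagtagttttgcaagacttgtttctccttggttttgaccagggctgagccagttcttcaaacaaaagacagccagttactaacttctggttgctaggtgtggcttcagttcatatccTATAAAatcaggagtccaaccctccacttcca
Anxa2: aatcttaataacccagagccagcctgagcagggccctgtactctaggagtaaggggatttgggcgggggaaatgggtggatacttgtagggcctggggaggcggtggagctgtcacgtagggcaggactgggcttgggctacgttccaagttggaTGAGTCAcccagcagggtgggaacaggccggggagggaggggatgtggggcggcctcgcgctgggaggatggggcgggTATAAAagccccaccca
Anxa11: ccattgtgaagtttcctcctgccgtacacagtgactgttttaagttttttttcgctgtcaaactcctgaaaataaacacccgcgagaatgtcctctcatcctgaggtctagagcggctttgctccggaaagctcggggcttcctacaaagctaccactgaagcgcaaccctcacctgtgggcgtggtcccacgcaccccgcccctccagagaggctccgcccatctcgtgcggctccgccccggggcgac
Anxa1 and Anxa2 hold TATAAA, starting 32 and 17 bases before the gene start, while the Anxa11 window has neither motif. Including the 50 bases after the start, the Anxa1 window holds 3 CG pairs and 47.3% G and C, the Anxa2 window 13 and 63.7%, and the Anxa11 window 25 and 59.7%, against a median of 7 and 52.7% over 32851 such windows. The table gave 11 windows for 8 of the 10 members, Anxa3 and Anxa6 not being among them. On both strands, AGGTCA, the short element that retinoid receptors bind, was found in 1 of the 11 windows (a window of Anxa9; 16.3% of all windows hold it), TGACTCA, the AP-1 site, in 1 (Anxa2; 5.2%), CACGTG, an E-box, in 1 (Anxa7; 7.15%) and TATAAA in 2 (Anxa1 and Anxa2; 13.6%). These matches describe the letters in short windows and say nothing of binding.

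Anxa1 (NM_010730), which is induced by glucocorticoids and acts on formyl peptide receptors to restrain inflammation, was the only one of the 9 with a higher level without RA. With RA its level was −0.37, −0.07, 0.05 and 0.13 in animals 1 to 4, and without RA it was 3.05, 4.60, 3.98 and 4.22 in the same order, used for all values by array below. Every RA-free culture was thus far above every RA-containing one, and RA-free array 1 was the lowest of its medium. The mean went from −0.06 ± 0.22 to 3.96 ± 0.66 (SD, n = 4), a change of 4.03 (SE 0.20) or 16.3-fold, which ranked 12 from the top among the 13539 genes. A further probe of Anxa1 gave 3.92 (SE 0.26), with differences of 3.21 to 4.71 in the 4 animals. Without animal 1 the change was 4.23.

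Anxa11 (NM_013469), whose long disordered N-terminus lets it tether RNA granules to lysosomes for transport along axons, moved the other way by the same amount. Its level was 3.92, 3.81, 3.78 and 3.77 with RA and −0.31, −0.59, −0.18 and 0.25 without. The RA-containing arrays lay within a narrow band and all 4 RA-free arrays lay well below it. The change was −4.03 (SE 0.15), 16.3-fold lower, at rank 83 from the largest decrease. Its dimmer probe was well above background on all 4 RA-containing arrays but on none without RA, which puts it at least 6.4-fold lower. This bound sets the mean of the bright medium against, array by array, the lowest signal that passed as well above background or the probe's own if higher.

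Anxa5 (NM_009673), which binds exposed phosphatidylserine and is used to stain dying cells, had the next largest decrease. It stood at 3.99, 4.00, 3.93 and 4.09 with RA and at 2.04, 1.67, 1.90 and 1.86 without. The animals were close to each other in both media, and the change of −2.13 (SE 0.09) corresponds to a 4.39-fold lower level. Anxa4 (NM_013471), abundant in secretory epithelia, was at 0.66, 0.51, 0.54 and 0.64 with RA and at −1.12, −1.12, −0.90 and −1.20 without. Again the media did not overlap, with a change of −1.67 (SE 0.09), 3.18-fold lower.

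Anxa2 (NM_007585), the partner of S100a10, was 2.43-fold lower without RA. Its level was 4.51, 4.20, 4.69 and 4.68 with RA and 2.96, 2.99, 3.73 and 3.28 without. Animal 3 had the highest level in each medium and the smallest difference, −0.95, while animal 1 had the largest, −1.55. The mean change was −1.28 (SE 0.11).

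Anxa6 (NM_013472), the annexin with a duplicated core, was at 4.96, 4.77, 4.90 and 4.75 with RA and at 3.94, 3.37, 3.12 and 3.41 without, a change of −1.38 (SE 0.13) or 2.61-fold lower. RA-free array 1 was the highest of its medium, and without animal 1 the change was −1.51. Anxa7 (NM_009674), synexin, was at 1.27, 1.04, 1.29 and 1.21 with RA and at 0.03, 0.05, 0.16 and −0.13 without, a change of −1.18 (SE 0.08) or 2.26-fold lower. Its further probe gave −1.60 (SE 0.14), a 3.03-fold lower level.

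The remaining members were dim or little changed. Anxa9 (NM_001085383), in whose core the usual calcium sites are not conserved, was at −1.42, −1.55, −1.53 and −1.64 with RA and at −2.23, −2.12, −1.96 and −1.68 without. The media did not overlap, but animal 4 differed by only −0.04, against −0.81 in animal 1. Its change of −0.46 (SE 0.13) was no longer called when arrays were scaled to the E1A spike-in RNA (spike-in scaling), with no filter on dim probes, or without animal 1, 2 or 3. Anxa8 (NM_013473), first described as a blood anticoagulant, was well above background on 3 RA-containing and 1 RA-free arrays; it ranged from −4.93 to −4.17 with RA and from −5.32 to −4.31 without, and its change of −0.42 (SE 0.17) was not called. A further Anxa8 probe, with 10 spots an array, and the probe of Anxa3 (NM_013470), an annexin of neutrophils, were well above background on none of the 8 arrays. Outside the set, Anxa10 was well above background on all 4 RA-containing arrays and none without RA and was at least 2.19-fold lower, and Anxa13 was well above background on none of the 8.

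**Figure D2:**
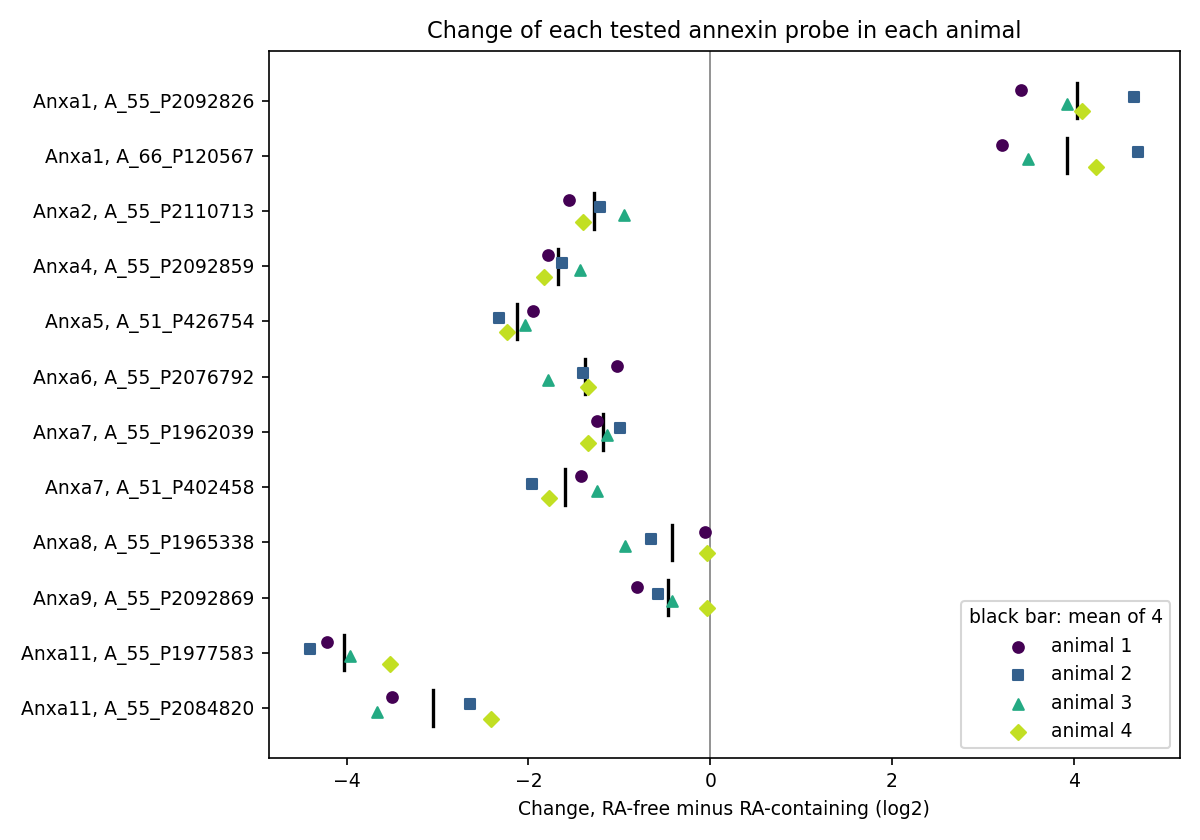
Change of each tested annexin probe between media (x axis, RA-free minus RA-containing, log2) for the 12 probes (y axis, gene and probe name), with 1 symbol per animal and a black bar at the mean of 4. Both Anxa1 probes lie above 3 in every animal, and the probes of the other members lie below 0 in every animal.

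The animals were compared in a way that the choice of the set did not use, by limma's F test of the animal term in the same fit. None of the 9 annexins passed (adjusted p from 0.293 to 0.847 by limma), with 1, Anxa2, at an unadjusted p under 0.05 (0.0372), and among all tested genes 6 were called (0.0443%), with 2219 (16.4%) under the unadjusted threshold. The means of the 4 animals spanned 0.93 for Anxa1, 0.72 for Anxa8 and 0.62 for Anxa2, but 0.12 for Anxa4 and 0.18 for Anxa5 and Anxa7, against a median span of 0.32 over all tested genes. Animals 1 and 2 lay in 1 row of the slide and animals 3 and 4 in the other. Within the rows, animals 1 and 3 lay in columns 1 and 2 and animals 2 and 4 in columns 3 and 4. A difference between animals thus cannot be told apart from position. Under spike-in scaling Anxa1 passed this test (adjusted p = 0.00927 by limma), and 338 genes were called in place of 6. The mean spike-in level (log2) with and without RA was 10.41 and 10.52 in animal 1 but 9.7 and 9.66 in animal 2. This level ran from 9.37 to 10.52 over the arrays, and scaling to it moves all genes of an array together. Its part in the added calls was not tested. In simulated data the F test found 66% of shifts of 2 (log2) in 1 animal. The lack of a call thus does not show that the animals were alike.

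All 9 tested annexins had a larger SD among the RA-free arrays than among the RA-containing arrays, as did 65.9% of all tested genes. Their median SD was 0.10 with RA and 0.35 without, against 0.15 and 0.19 for all tested genes. Each tested annexin differed in the same direction in all 4 animals, so its direction within a row of the slide was fixed, and only sizes are given. Animals 1 and 2 alone gave 4.04 for Anxa1, −4.31 for Anxa11 and −2.14 for Anxa5, and animals 3 and 4 alone gave 4.01, −3.74 and −2.13. For Anxa9 these were −0.69 and −0.23. RA-containing arrays lay in columns 1 and 3 of the slide and RA-free arrays in columns 2 and 4. A difference between media thus cannot be told apart from slide column, and splitting by row does not separate them.

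Genes whose levels, centred on their own mean, followed an annexin most closely over the 8 arrays were found by the smallest root mean square difference. For Anxa1 the closest were Sall3, a zinc finger transcription factor (0.268), Adra2c, the alpha-2C adrenergic receptor (0.426), and Camkv (0.432). For Anxa11 they were Hoxb3, a homeobox gene (0.211), Man1a, a mannosidase of the Golgi (0.216), and Cmbl (0.226), and for Anxa8, with the smallest change, 4930404N11Rik (0.108), 4933412E12Rik (0.138) and Chst12 (0.154). With 4 animals in 2 media such likeness is mostly likeness of the change itself: Sall3 had a change of 3.65 and Hoxb3 one of −3.92.

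The S100 genes, which include the partners of several annexins, were split between the media. Of 16 listed genes 10 were tested, and 2 were called higher and 2 lower, with a median change of −0.18. Among all tested genes 35.9% were called higher and 28.4% lower. These shares are the background for the counts of this and each later list, and nothing is read from the counts alone. S100a10, the partner of Anxa2, was at 4.18, 4.05, 4.44 and 3.46 in the RA-containing cultures of animals 1 to 4 and at 0.60, 0.28, 1.39 and 0.00 in their RA-free cultures. It fell by 3.46 on the log2 scale (SE 0.13, adjusted p = 5.05e-05 by limma), an 11-fold lower level in 4 of 4 animals. Its change exceeded that of Anxa2 in each animal, by −2.02, −2.56, −2.09 and −2.07. S100a1, measurable on 2 of the 4 arrays without RA, also fell (−1.90, SE 0.24, adjusted p = 0.00111 by limma; −2.27 by a further probe, −0.68 under normexp with quantile normalization, another background correction and scaling).

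S100a4, a partner of Anxa2 linked to cell motility, rose from 0.02, −0.05, 0.95 and 0.50 to 1.59, 2.47, 3.46 and 2.62. This was a change of 2.18 (SE 0.17, adjusted p = 0.000253 by limma), or 2.02 by a further probe. Animal 3 was the highest in each medium. S100a16 rose by 1.39 (SE 0.11, adjusted p = 0.000250 by limma), or by 0.57 by its further probe. S100a11, a partner of Anxa1, did not pass (−0.28, SE 0.14, adjusted p = 0.142 by limma). Neither did S100a6, a partner of several annexins (−0.12, SE 0.12, adjusted p = 0.411 by limma). For S100a6 the levels overlapped, from 3.22 to 4.03 with RA and from 3.17 to 3.97 without.

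**Figure D3:**
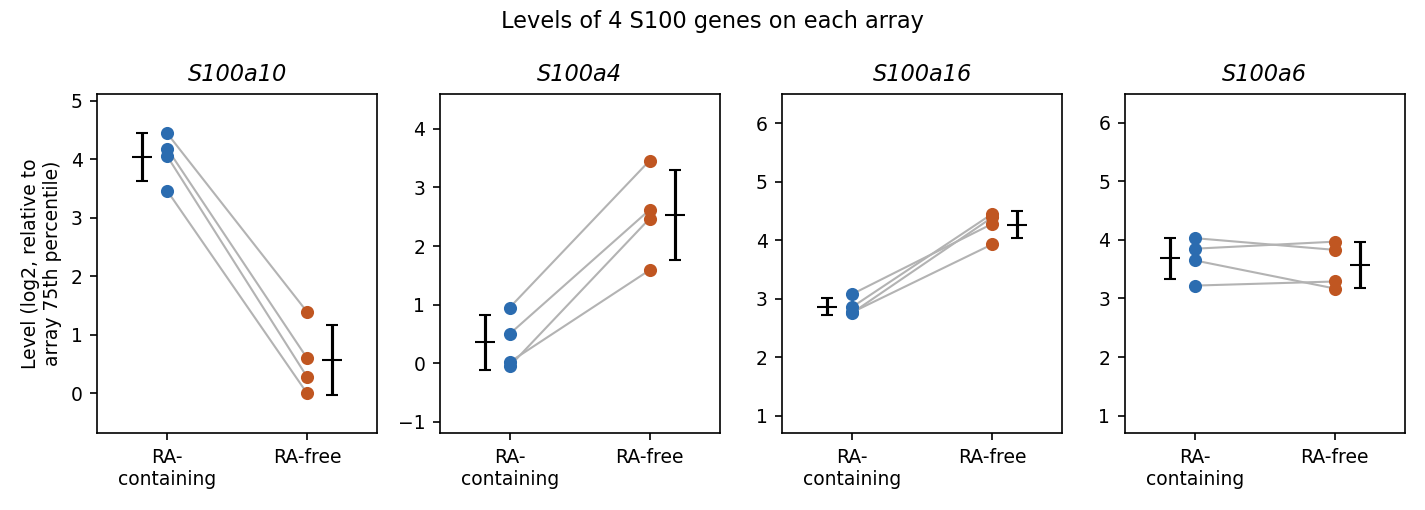
Levels of 4 S100 genes on each array (y axis, log2 relative to the array's 75th percentile, each panel over the same range) by medium (x axis), with lines joining the cultures of 1 animal and black marks for the mean and SD of 4. S100a10 is lower and S100a4 and S100a16 are higher without RA in all 4 animals, while the S100a6 arrays of the 2 media overlap.

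Genes around the plasminogen-binding complex of Anxa2 and S100a10 were measured as well: of 11 listed, 6 were tested, 2 were called higher and 1 lower, with a median change of 0.03. Plat, tissue plasminogen activator, was lower (−1.31, SE 0.11, adjusted p = 0.000297 by limma), or −0.45 under normexp with quantile normalization, being measurable on 2 of the 4 arrays without RA. Plgrkt, a plasminogen receptor, rose by 0.85 (SE 0.13, adjusted p = 0.00217 by limma). Ahnak, a scaffold that binds the Anxa2 complex, had a change of −0.14 (SE 0.22) by its brightest probe and did not pass, but its probes disagreed: the further ones gave 0.32 and −1.95, the last with an adjusted p of 0.00105 by limma over all tested probes. Plau, Plg, Serpinb2 and Serpinf2 were not well above background on any array.

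The formyl peptide receptors through which Anxa1 signals were near background: Fpr2 was too dim for the test, and Fpr1 and Fpr3 were well above background on none of the 8 arrays. In the list of these receptors and of genes of the glucocorticoid response, 8 of 12 were tested, 3 were called higher and 1 lower, with a median change of 0.04. Zbtb16, a zinc finger gene, rose by 2.01 (SE 0.13, adjusted p = 0.000150 by limma; 1.19 under normexp with quantile normalization). Nr3c1, the glucocorticoid receptor, rose by 0.99 (SE 0.09, adjusted p = 0.000432 by limma; 0.61 by a further probe) and Fkbp5, its co-chaperone, by 0.69 (SE 0.09, adjusted p = 0.00144 by limma). Klf9 was lower (−0.74, SE 0.12, adjusted p = 0.00267 by limma), or −0.46 under normexp with quantile normalization, a call lost under spike-in scaling, and Tsc22d3, the glucocorticoid-induced leucine zipper, had a change of −0.05 (SE 0.07).

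Of 21 listed genes of membrane repair, 18 were tested, of which 8 were called lower and 3 higher, with a median change of −0.23. The shares among all tested genes were 28.4% lower and 35.9% higher. Dysf, dysferlin, a membrane repair protein that binds annexins, was 1.03, 0.92, 0.88 and 0.82 with RA and −0.69, −1.26, −1.30 and −1.42 without, and fell by 2.09 (SE 0.11, adjusted p = 9.09e-05 by limma). Capn1, a calcium-dependent protease, fell by 1.28 (SE 0.19, adjusted p = 0.00192 by limma), Gca, grancalcin, by 1.13 (SE 0.08, adjusted p = 0.000166 by limma) and Sri, sorcin, which binds Anxa7, by 0.83 (SE 0.08, adjusted p = 0.000412 by limma). Under normexp with quantile normalization Capn1 and Gca had changes of −0.55 and −0.37. The 3 higher genes, Cavin1 (0.49), Tsg101 (0.32) and Pdcd6 (0.31), the last a partner of Anxa7 and Anxa11, lost their calls under 4, 9 and 8 of 14 alternatives; they are named after their values were seen, as the ones that went against the list's median. Cav1, Myof and Trim72 were not well above background on any array.

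Genes that expose or recognise phosphatidylserine, the lipid that Anxa5 binds, went both ways: of 20 listed 15 were tested, with 7 called lower, 4 higher and a median change of 0.02. Tyro3, a receptor that binds the lipid through bridging proteins, fell by 1.42 (SE 0.10, adjusted p = 0.000164 by limma) and Xkr4, of the scramblase family, by 1.18 (SE 0.11, adjusted p = 0.000397 by limma). Axl, a relative of Tyro3, rose by 0.84 (SE 0.23, adjusted p = 0.0220 by limma), or 0.40 under normexp with quantile normalization, a call lost with no filter on dim probes and without animal 2 or 4. Copines are another family of calcium-dependent lipid-binding proteins; of 9 listed, 6 were tested, 1 was called higher and 3 lower, with a median change of −0.13. Cpne6 fell by 1.18 (SE 0.15, adjusted p = 0.00115 by limma; −0.66 under normexp with quantile normalization). Cpne5 was lower (−0.91, SE 0.12, adjusted p = 0.00137 by limma) as was Cpne1 (−0.26, SE 0.07, adjusted p = 0.0236 by limma; −0.12 by a further probe), whose call was lost under 7 of 14 alternatives. Cpne7 rose by 0.95 (SE 0.11, adjusted p = 0.000822 by limma).

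**Figure D4:**
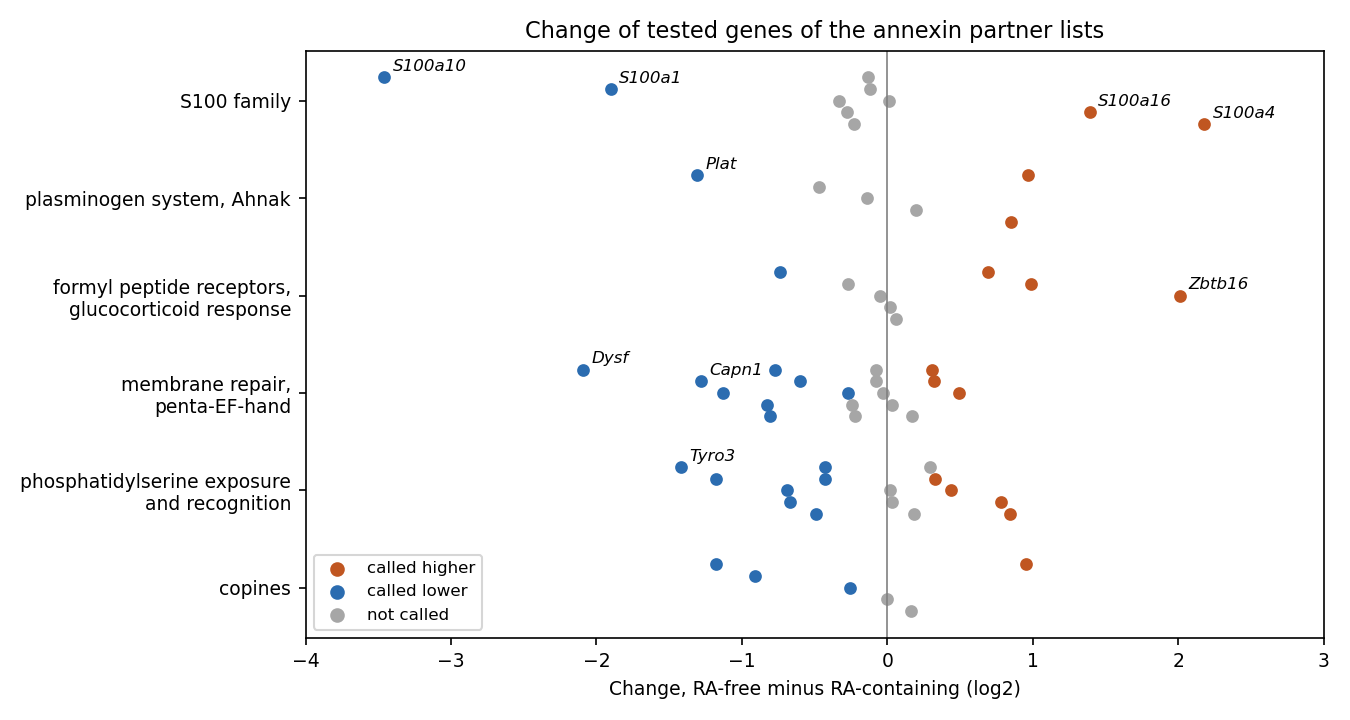
Change between media (x axis, RA-free minus RA-containing, log2) of each tested gene of the 6 lists of annexin partners and related genes (y axis). Orange points were called higher, blue points lower and grey points not called at an adjusted p under 0.05, and the largest changes are named. S100a10, at −3.46, lies farthest from 0 and S100a4, at 2.18, farthest on the other side.

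Annexins are also made by other cells that a ganglion may hold, and the markers of such cells were measured beside them. The counts called in each marker list stand against 28.4% lower and 35.9% higher among all tested genes. The summed linear level of 12 Schwann and satellite glia markers was 27.2 to 29.9 on the RA-containing and 14 to 17.9 on the RA-free arrays, and without Mbp, the brightest, 13.4 to 14.9 and 5.91 to 7. Of 9 tested, 4 were called lower and none higher: Ngfr, the low-affinity neurotrophin receptor (−2.39, adjusted p = 0.000104 by limma), Prx (−1.34, adjusted p = 0.000682 by limma), Fabp7 (−0.99, adjusted p = 0.000705 by limma) and Mbp, myelin basic protein (−0.59, adjusted p = 0.00435 by limma). The Mbp call was lost under spike-in scaling and with the mean of its probes. Sox10, which defines these glia, was not called (−0.12, SE 0.08, adjusted p = 0.251 by limma), and Erbb3 was well above background on none of the 8 arrays.

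For 11 immune markers the sum was 19.4 to 24.2 with RA and 15 to 17.3 without, but Itgam alone made up 80.7% to 90.2% of it, and the rest overlapped (2.36 to 4 with RA and 2.88 to 3.18 without). Of 6 tested, 3 were called lower. Itgam fell by 0.51 (adjusted p = 0.00818 by limma), a call lost under spike-in scaling, with −0.34 from the mean of its probes. Aif1 and Adgre1, macrophage genes, were dim with RA, at −3.71 and −3.76, and were well above background on no RA-free array, which puts them at least 1.49-fold and at least 1.44-fold lower. Ptprc, Tyrobp, Lyz2 and Cd14 were among those not well above background anywhere.

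For 12 fibroblast and mesenchymal markers the sums overlapped, 10 to 13.6 with RA and 9.62 to 13.9 without, with Thy1, which neurons also make, at 25.9% to 62.7% of them. Without Thy1 the sums were 6.69 to 7.94 with RA and 5.17 to 7.94 without, and still overlapped. Of 7 tested, 4 were called lower, Postn (−1.11, adjusted p = 0.000854 by limma) being the brightest of these. The others were Fap (−1.74, or −0.72 under normexp with quantile normalization), Col3a1 (−0.74, a call lost under spike-in scaling) and Dcn. Dcn was well above background on no RA-free array and was at least 1.64-fold lower. Col1a2 was called higher (1.03, adjusted p = 0.00427 by limma). Pdgfra and Lum were well above background on no array. The sum of 10 endothelial markers, 8.81 to 11.2 with RA and 9.03 to 10.2 without, was 86.2% to 92.1% Kdr and so shows little of the other members. Of 5 tested, 1, Pecam1, was called lower (−0.34), a call lost under 9 of 13 alternatives, with −0.08 under normexp with quantile normalization. Cdh5, Tek and Emcn were well above background on no array. The sum of 8 adrenocortical markers, 9.11 to 11.1 with RA and 13.3 to 19 without, was 92% to 96.1% Fdx1, a ferredoxin made in many cells (0.69, adjusted p = 0.000947 by limma), and without it the media overlapped (0.58 to 0.725 and 0.70 to 0.83). The other of 2 called higher of 4 tested was Star (0.73, adjusted p = 0.00704 by limma; 0.15 and not called under normexp with quantile normalization). Cyp11a1, Cyp11b1, Hsd3b1 and Mc2r were well above background on no array. The part of these cells in the annexin levels was not tested.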

How the data were processed

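Total RNA of 8 sphere cultures (integrity number over 8; 40 or 200 ng) was labelled with Cy3, per the labels' protocols. Per the file headers, the authors' intensities come from Feature Extraction 11.5.1.1, from a scan of a single slide of design 028005. The authors also deposited a log2 table. Set against the scanner values scaled to the 75th percentile, it is centred per probe on the mean of the 8 arrays (correlation at least 0.9999). Each array differed by an offset between −0.0142 and 0.0163, with 99.5% of probes within 0.01 of it. Its scaling thus matches the one used here to within these offsets. Column medians of replicates 1 to 4 were −0.23, −0.22, 0.02 and −0.01 with RA and −0.07, 0.01, 0.17 and 0.20 without.

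Levels are log2 processed intensities less the 75th percentile over the array's non-control spots, with outlier spots left out and spots of a probe averaged. No non-control spot was saturated. A probe was above background on an array where at least 0.5 of its spots were flagged so, and was tested where this held on at least 4 of 8 arrays. Accessions gave gene names through RefSeq (GRCm38.p6) for 27206 probes, and the brightest probe stood for a gene. The arrays' own annotation names mm9, so the only coordinates printed are RefSeq's.

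The media were compared with limma 3.58.1 (R 4.3.3), two-sided, with a block for animal. P-values were adjusted by Benjamini-Hochberg over 13539 genes, and genes under 0.05 were called. The pairing comes from the series' design; paired arrays' deviations from their medium's mean correlated by 0.52, 0.30, 0.19 and 0.33 in animals 1 to 4. The fit was tested on simulated data in which few of 29358 probes were changed. It called 60% of changes of 1 (log2) between media and 92% of changes of 2. The F test called 66% of shifts of 2 in 1 animal. In a Dixon test of each medium's 4 arrays no tested annexin had an outlying array.

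Members and lists were chosen with earlier results of these data known. Named are all annexins, up to 4 called genes of each list with the largest changes, and the 3 genes most like the annexins with the 2 largest changes and with the smallest. Some genes that this rule names are not reported here. Other genes named were chosen after their values were seen, as was the TATAAA search.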

Additional observations from a re-analysis of the deposited data

How the results depend on the processing

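Over 14 alternatives, Anxa1 (3.60 to 4.23), Anxa2 (−1.48 to −1.12), Anxa4 (−1.78 to −1.29), Anxa5 (−2.28 to −1.97), Anxa6 (−1.61 to −1.22), Anxa7 (−1.39 to −1.02) and Anxa11 (−4.20 to −3.54) kept their direction and their call. The set was chosen on this comparison, so nothing is read from the kept calls. Leaving out the replicate block or changing the filter on dim probes left these changes as they were. The deposited log2 table repeats nearly the same values. Anxa9 ranged from −0.60 to −0.23 and Anxa8, over 13, from −0.55 to −0.06, called only with the 75th percentile of detected probes (−0.53). The median change of all tested genes moved from 0.07 to −0.04 with that percentile, 0.23 under spike-in scaling and 0.17 with no filter on dim probes. Without the replicate block, 4432 genes were called higher and 3572 lower (4862 and 3841 with it), with 1 and 7 annexins; membrane repair genes called higher went from 3 to 0, and no other list count moved by over 1.5 times.

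Spike-in scaling gave 1913 genes called lower and 338 with animal differences (main 6), with 1 annexin among these; it left 1 higher and 5 lower membrane repair genes (main 3 and 8), 2 and 2 phosphatidylserine genes (main 4 and 7) and 0 lower glucocorticoid response genes (main 1). Membrane repair genes called higher were also 1 under normexp, with quantile-normalized processed signals and with the detected 75th percentile. Glucocorticoid response genes called lower were 3 and 2 under the first and second of these. Plasminogen genes called lower (main 1) were 2 under normexp, with the detected 75th percentile and with the mean of a gene's probes. With no filter on dim probes 4 S100 genes (main 2) were called higher. Genes with animal differences were 16 under normexp and 3 among probes above background on all 8 arrays. Leaving out each animal gave 0 to 3 membrane repair and 2 to 5 phosphatidylserine genes called higher, 1 to 2 plasminogen genes called lower and 1 to 7 genes with animal differences. Causes were not tested. Normexp, run on median signals, and the slide rows were chosen after seeing the data; normexp on mean signals was not run. Probes near background limit Anxa3, Anxa8 and the dimmer Anxa11 probe.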
